A study of Homo sapiens with 32 samples.

Results

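Of the 337187 HNF4α peaks that 18 lists held on chromosomes 1 to 22 and X, 41582 had a summit more than 100 kb outside the span of every protein-coding gene. These are called distal peaks here, and the remaining 295605 are called other peaks. The distances were taken from the RefSeq gene table of GRCh38.p14, and no peak strength entered the rule. The class of distal peaks was itself chosen with earlier results of these data known. Per list, between 47 and 6369 peaks were distal, or 8.90% to 18.1% of the list. In the 14 lists made with the antibody against all HNF4α isoforms (pan antibody), the median distal peak lay 209 to 240 kb from the nearest protein-coding gene, and 2.44% to 4.48% of distal peaks lay more than 1000 kb away. Just inside the limit, at 100 to 110 kb, the 18 lists together held 2770 peaks, and just outside it, at 90 to 100 kb, they held 3348.

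HNF4α binding was mapped by chromatin immunoprecipitation sequencing (ChIP-seq) in 3 human pancreatic ductal adenocarcinoma lines. Panc10.05 and BxPC3 cells expressed the α2 isoform of promoter P1 (P1-a2) or the α8 isoform of promoter P2 (P2-a8) under doxycycline, at 500 ng/mL for both isoforms in BxPC3, and at 25 ng/mL for P1-a2 and 12.5 ng/mL for P2-a8 in Panc10.05. The lists hold no group of these lines without an induced isoform, and in Panc10.05 isoform and dose differed together. ASPC1 cells carried CRISPR interference, in which a guide RNA brings a repressor to a promoter, with the guide sgP1 against P1, sgP2 against P2 or the control guide sgNC. The pan antibody was used on sgP1, sgP2 and sgNC cells, and an antibody for P1 isoforms (P1 antibody) on sgP2 and sgNC cells, so that 9 groups had 2 lists each. The labels of the BxPC3 P2-a8 libraries disagree, since the title names a8 with P1, and the genotype label was followed. Replicate numbers come from the titles, which do not say whether replicates were separate cultures, so the p-values below measure only the spread between these libraries. Lists differed in length from 259 peaks (ASPC1 sgNC with the P1 antibody, replicate 2) to 41799 (BxPC3 P1-a2, replicate 1). Lists of the induced lines start at a −log10 q of about 8, and ASPC1 lists at about 2. Line and sequencing series cannot be told apart, the floor was made equal in 1 comparison below, and the read depth is unknown.

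HNF4α is a nuclear receptor that binds DNA as a homodimer and drives genes of liver, gut and pancreatic epithelium. Its P1 and P2 promoters give proteins with different N-termini and the same DNA-binding domain. Like most factors of its kind it binds far more often at enhancers than at promoters, and an enhancer may act on a promoter far away along the chromosome. Long stretches without protein-coding genes often surround genes of development and growth control, and such stretches hold enhancers as well as long non-coding RNA (lncRNA) genes. The protein-coding gene nearest to a region is therefore given here only as its address.

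Some distal peaks lay on the start of an lncRNA gene, and for those the sequence under the peak can be shown. Windows from 250 bases before to 50 bases after a gene start were taken from RefSeq (GRCh38.p14). Of the 11121 distal regions formed by merging the peaks of the 14 pan-antibody lists, 117 (1.05%) touched such a window. All 133 windows so touched belonged to lncRNA genes. The 100 kb limit itself keeps distal regions off the starts of protein-coding genes, so the absence of such genes here is no result. A pair of 9-base words was searched on both strands, CAAAGTCCA, from the motif that HNF4 prefers over other nuclear receptors, and CAAAGGTCA, from the direct repeat that other nuclear receptors also bind. The words differ inside, so that one match cannot be both. The 5 windows below were chosen because a peak covered them in 7 or more lists and they held a motif, or, for the last, because the window had the highest mean rank among those with a peak in all 14 lists. Each reads 5′ to 3′ along the gene's strand, and capitals mark the motif, which appears as its reverse complement where the match is on the opposite strand.
MANCR, chr10:4678021-4678320, minus strand: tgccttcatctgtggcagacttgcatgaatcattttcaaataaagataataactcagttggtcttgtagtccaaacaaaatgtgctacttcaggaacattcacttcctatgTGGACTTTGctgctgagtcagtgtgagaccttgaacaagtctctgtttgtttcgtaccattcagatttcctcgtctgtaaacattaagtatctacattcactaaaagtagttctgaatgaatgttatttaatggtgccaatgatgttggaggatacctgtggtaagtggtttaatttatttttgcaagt
LOC105375602, chr7:156147119-156147418, plus strand: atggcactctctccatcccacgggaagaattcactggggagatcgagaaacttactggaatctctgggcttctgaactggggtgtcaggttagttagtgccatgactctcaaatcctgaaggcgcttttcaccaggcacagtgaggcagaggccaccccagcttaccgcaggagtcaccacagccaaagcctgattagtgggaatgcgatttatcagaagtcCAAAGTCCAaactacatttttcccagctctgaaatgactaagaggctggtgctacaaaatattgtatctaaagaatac
MIR100HG, chr11:122367939-122368238, minus strand: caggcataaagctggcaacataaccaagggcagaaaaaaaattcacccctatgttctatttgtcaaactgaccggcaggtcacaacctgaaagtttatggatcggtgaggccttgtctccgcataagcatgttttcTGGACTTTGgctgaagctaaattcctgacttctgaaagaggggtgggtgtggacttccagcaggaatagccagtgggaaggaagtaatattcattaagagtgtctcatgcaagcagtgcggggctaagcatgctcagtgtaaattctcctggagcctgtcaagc
FAM230B, chr22:21167615-21167914, plus strand: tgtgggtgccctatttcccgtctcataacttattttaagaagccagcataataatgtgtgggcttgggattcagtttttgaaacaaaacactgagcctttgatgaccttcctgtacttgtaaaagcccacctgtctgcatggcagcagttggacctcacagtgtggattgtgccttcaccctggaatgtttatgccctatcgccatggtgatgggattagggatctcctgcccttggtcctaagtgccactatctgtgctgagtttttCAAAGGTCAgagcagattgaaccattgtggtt
LINC02747, chr11:69479908-69480207, minus strand: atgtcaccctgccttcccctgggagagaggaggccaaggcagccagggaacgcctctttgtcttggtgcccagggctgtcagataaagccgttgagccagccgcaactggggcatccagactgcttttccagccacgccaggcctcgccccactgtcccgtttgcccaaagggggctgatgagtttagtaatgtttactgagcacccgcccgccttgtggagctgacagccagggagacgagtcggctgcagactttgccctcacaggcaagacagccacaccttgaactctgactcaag

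The motif lay close to the summits in 3 of these windows. In the window of MIR100HG, the host gene of a miRNA cluster, 13 of 13 summits lay inside the window, and the middle of CAAAGTCCA was 1 to 94 bp from them (median 20 bp). In the window of LOC105375602, whose nearest protein-coding gene is the signalling gene SHH at 335 kb, all 13 summits also lay inside, 3 to 54 bp from the motif (median 25 bp). The window of FAM230B had 7 summits at 8 to 56 bp from CAAAGGTCA (median 41 bp). The MANCR window was covered by a peak in 13 lists, but only 7 summits lay inside it, and the median distance to the motif was 135 bp. The window of LINC02747, 161 kb from the cell-cycle gene CCND1, held neither word although its peak was found in all 14 pan-antibody lists with every summit inside.

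Over all 34961 promoter windows, CAAAGTCCA was present in 0.386% and either word in 0.792%. Among the 2910 lncRNA windows more than 100 kb from protein-coding genes, either word was present in 5 of the 132 with a pan-antibody peak (3.79%) and in 20 of the 2778 without one (0.720%). For CAAAGTCCA alone the counts were 3 (2.27%) and 12 (0.432%). A match describes letters in a window and is not shown to be a bound site. The letters under distal regions away from these windows were not analysed here.

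Peak strength on these windows differed between libraries. Ranks are percentiles of the authors' fold enrichment within a list, 100 being the strongest peak. The LINC02747 peak ranked lowest in Panc10.05 P2-a8 replicate 2 (percentile 79.0, 17.4-fold enrichment) and highest in ASPC1 sgP2 replicate 2 (percentile 99.3, 43.4-fold). The MIR100HG peak stood lower, at percentiles 28.8 to 86.8, and was absent from Panc10.05 P2-a8 replicate 2. The LOC105375602 peak reached percentiles of 96.3 and 93.7 in the ASPC1 sgP1 lists, 96.6 and 70.8 in the sgNC lists, and 77.5 and 91.8 in the sgP2 lists. It stood at 96.2 and 57.2 in BxPC3 P1-a2, 37.9 and 36.1 in BxPC3 P2-a8, and 81.2 and 71.9 in Panc10.05 P1-a2. In Panc10.05 P2-a8 it had its lowest percentile, 26.2, in replicate 1 and was absent from replicate 2. In FAM230B all 4 Panc10.05 and 3 of 4 BxPC3 lists held the peak (percentiles 50.03 to 93.7), and none of the 6 ASPC1 pan-antibody lists did.

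Distal binding took a smaller share of the lists than distal sequence takes of the genome. Between the outermost protein-coding genes of the chromosomes, 875 of 2945 Mb (29.7%) lie more than 100 kb from a protein-coding gene. The distal share of peaks was below that value in 18 of 18 lists, at 0.299 to 0.611 times the sequence share (median 0.404). Leaving out gaps over 3 Mb between neighbouring genes, which include centromeres and sequence that is hard to map, moved the sequence share to 24.9% and the median ratio to 0.415. With the pan antibody distal peaks lay inside lncRNA genes more often than distal sequence does, at 30.1% to 34.1% against 22.6%. With the P1 antibody 17.0% to 32.2% of distal peaks did. The 22.6% is taken over all 875 Mb of distal sequence, of which 683 Mb remain without gaps over 3 Mb. It was not computed without those gaps, so their part in the contrast was not tested. Under a limit counted from every annotated gene, non-coding genes included, far fewer peaks qualify, and comparisons that change under it are named below.

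With the pan antibody the lines kept apart by distal share, while the guides of ASPC1 and the isoforms of BxPC3 overlapped. In Panc10.05 the share was 12.6% and 13.2% with P1-a2 and 11.2% and 11.7% with P2-a8, so that the isoforms did not overlap. In BxPC3 it was 15.2% and 15.5% with P1-a2 and 14.3% and 15.7% with P2-a8, which overlap. In ASPC1 with the pan antibody it was 10.2% and 9.13% with sgP1, 9.56% and 8.90% with sgP2, and 9.53% and 9.51% with sgNC. The 3 ASPC1 genotypes overlapped with each other, and every ASPC1 value was below every value of the induced lines. With the P1 antibody the share was 12.3% and 10.4% with sgP2, and 12.4% and 18.1% with sgNC. The highest value, from the list with 259 peaks, had the widest counting interval (exact binomial 95% interval 13.6% to 23.4%).

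**Figure D1:**
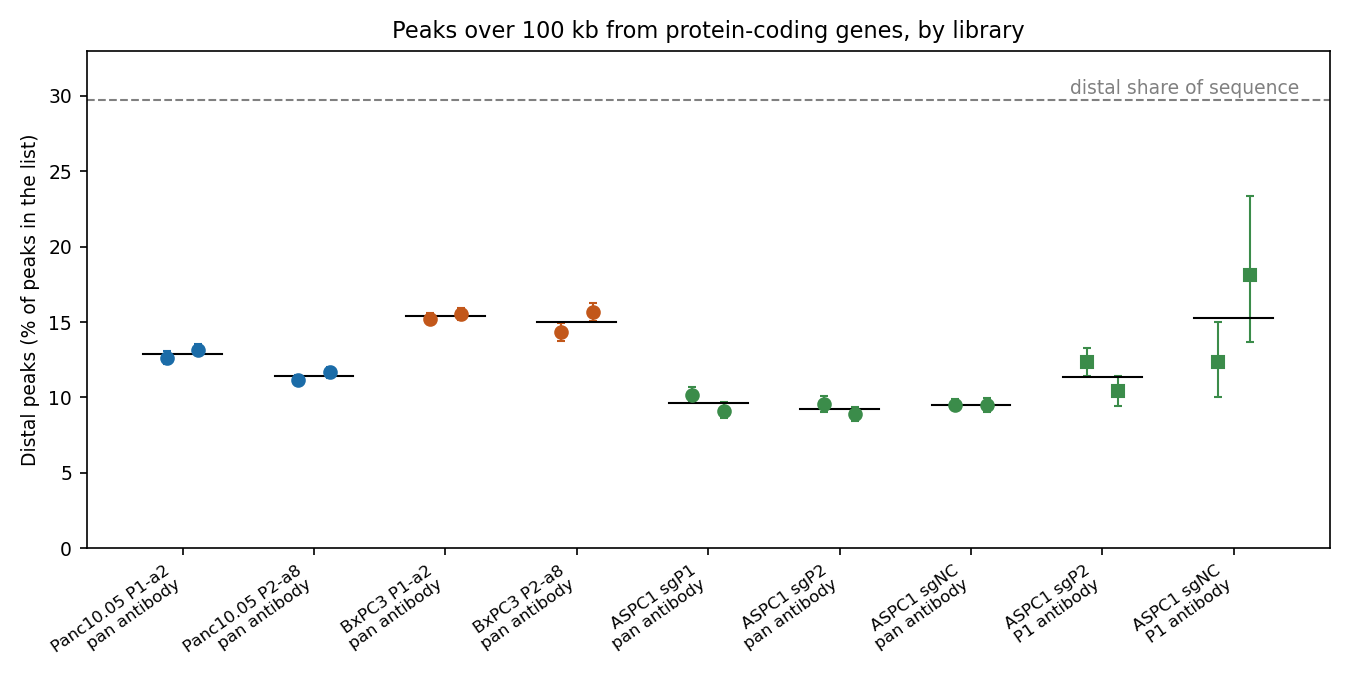
Distal peaks as a percentage of the peaks in each list, with exact binomial 95% intervals that cover counting error only, by group; short black lines are group means of 2 libraries, circles the pan antibody, squares the P1 antibody, and the dashed line the distal share of sequence (29.7%). BxPC3 lists sit at 14.3% to 15.7%, Panc10.05 lists at 11.2% to 13.2% and ASPC1 pan-antibody lists at 8.90% to 10.2%.

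BxPC3 exceeded Panc10.05 by 3.04 percentage points (15.2% ± 0.603 against 12.1% ± 0.909, SD, n = 4 lists each), with no overlap. The two-sided exact permutation test gave p = 0.0286, the smallest value that 4 against 4 lists allow, and 0.157 after Benjamini-Hochberg adjustment over 11 comparisons of shares. When every annotated gene set the limit, the difference was 0.177 points. With a common −log10 q floor of 8 in all lists, the ASPC1 pan-antibody lists differed from the induced lines by −4.37 points (exact permutation p = 0.000666, adjusted p = 0.00733, 6 against 8 lists), which was −0.672 points with every annotated gene. This comparison sets lines against each other, and line, dose and sequencing series differ with it.

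Within lines no difference in distal share passed the threshold, and 2 against 2 lists cannot give an exact permutation p below 0.33. P1-a2 exceeded P2-a8 by 1.49 points in Panc10.05 (12.9% ± 0.369 against 11.4% ± 0.363, SD, n = 2) and by 0.379 points in BxPC3 (15.4% ± 0.205 against 15.0% ± 0.952). Over both lines, with labels exchanged within each line, the isoform difference was 0.933 points (exact permutation p = 0.167, adjusted p = 0.524). The difference between these 2 isoform effects was 1.11 points (exact permutation p = 0.278, smallest possible 0.0556). In ASPC1 with the pan antibody, sgP1 minus sgNC was 0.145 points, sgP2 minus sgNC −0.289 points and sgP1 minus sgP2 0.434 points, each within the spread of the replicates.

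The P1 antibody gave a larger distal share than the pan antibody in the same genotype, by 2.14 points in sgP2 and 5.73 points in sgNC, and within the P1 antibody sgP2 minus sgNC was −3.89 points. All 3 comparisons had an exact permutation p of 0.33, the smallest allowed. Without the sgNC list of 259 peaks (P1 antibody, replicate 2) the sgNC difference was 2.84 points and sgP2 minus sgNC −0.992 points, and without sgNC P1-antibody replicate 1 they were 8.63 and −6.78 points. The difference in sgP2 was 1.17 points without sgP2 P1-antibody replicate 1, and −0.249 points, with the opposite sign, among peaks with a −log10 q of at least 20. All 3 differences moved with the long gaps: 34.9% and 48.9% of the distal P1-antibody peaks in sgNC, and 17.2% and 15.7% in sgP2, lay in gaps over 3 Mb, against 5.50% to 9.35% in the pan-antibody lists. Without such gaps the differences were 1.12 points in sgP2, 0.383 points in sgNC, and 0.358 points, with the opposite sign, for sgP2 minus sgNC.

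With the pan antibody distal peaks ranked close to other peaks. The median distal peak stood at percentile 50.7 to 52.8 in the 8 lists of the induced lines, always above the median of other peaks (49.6 to 49.9), by 0.790 to 3.13 percentile points. In the 6 ASPC1 pan-antibody lists the difference ran from −2.42 to 1.67 points, with sgP1 replicate 1 and sgP2 replicate 1 below 0. With the P1 antibody the distal median was far lower in all 4 lists, at percentile 32.5 and 38.5 with sgP2 and 30.2 and 13.5 with sgNC, against 51.1 to 55.4 for other peaks. Averaged over the 9 groups the difference was −4.36 points and did not pass the threshold (two-sided exact sign-flip permutation test, p = 0.484, n = 9 group means). Without the 2 P1-antibody groups it was 1.24 points (exact permutation p = 0.0781, n = 7 group means).

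The distal P1-antibody peaks ranked lowest in the long gaps. Those in gaps over 3 Mb had a median percentile of 5.60 and 1.99 with sgP2 and 2.59 and 5.41 with sgNC, whereas those elsewhere stood at 38.6, 42.9, 51.2 and 43.7. In the weakest decile of the P1-antibody peaks by fold enrichment 36.2%, 19.5%, 44.9% and 80.0% were distal, and in the strongest decile 6.36%, 7.42%, 8.45% and 11.5%. ASPC1 pan-antibody peaks in long gaps also ranked low in their lists, at median percentiles of 30.1 to 42.0, while those of the induced lines stood at 49.2 to 56.6. ASPC1 lists start at a −log10 q of about 2 and the others at about 8. The long-gap ranks were not taken at a common floor, so this difference between lines cannot be told apart from the floor. What the P1 antibody recovers in these gaps was not tested.

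**Figure D2:**
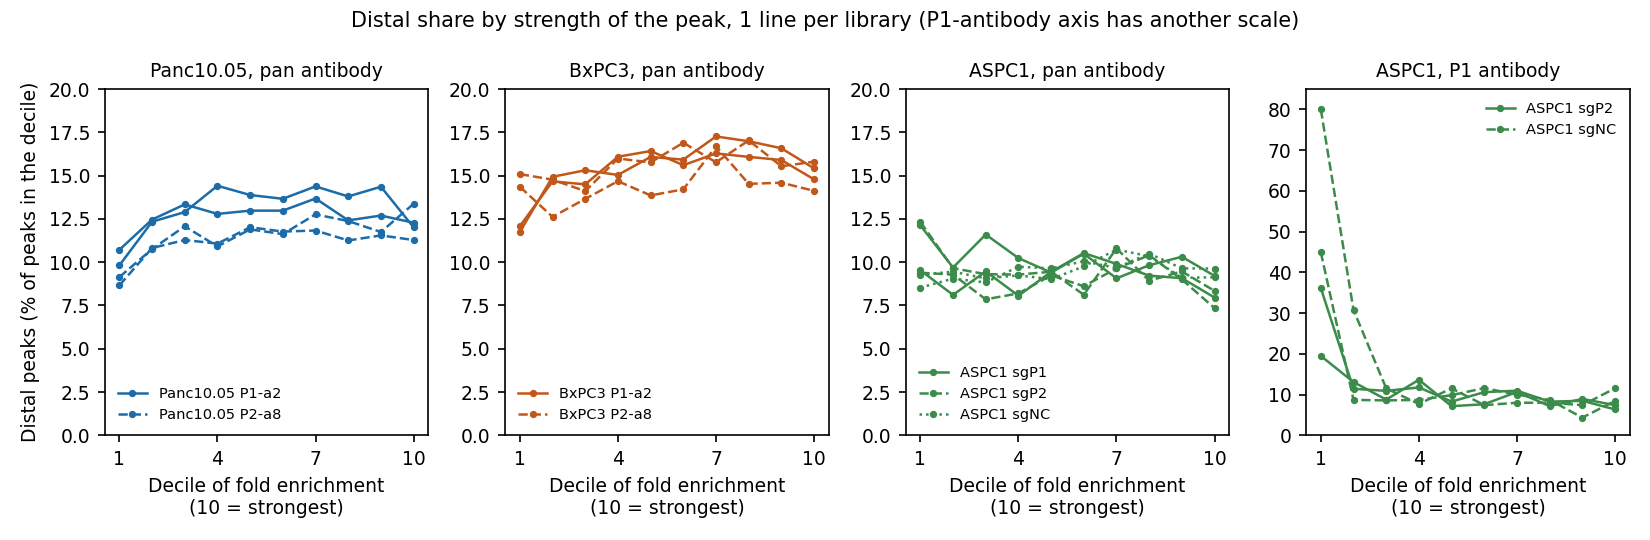
Distal peaks as a percentage of the peaks in each decile of a list by fold enrichment, from the weakest (1) to the strongest (10), with 1 line per library and line styles for genotypes; the P1-antibody panel has its own vertical scale. The P1-antibody lists start between 19.5% and 80.0% in the weakest decile and end between 6.36% and 11.5%, while the pan-antibody lists stay between 7.35% and 17.3% throughout.

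Distal P1-antibody peaks were also found less often than other peaks in the pan-antibody lists of their own genotype. The overlap was not matched for rank, and distal P1-antibody peaks ranked lower, so it is not a separate line of support. With sgP2, 420 of 640 distal peaks (65.6%) in replicate 1 and 349 of 407 (85.7%) in replicate 2 overlapped a pan-antibody peak. With sgNC, 60 of 86 (69.8%) and 29 of 47 (61.7%) did. Among other peaks 91.3% to 97.6% did in all 4 lists. Distal peaks outside long gaps came between, at 72.5% and 92.4% with sgP2 and 82.1% and 75.0% with sgNC.

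Distal peaks were narrower than other peaks. The median width was 433 and 463 bp against 457 and 493 bp in Panc10.05 P1-a2, 403 and 400 bp against 422 and 416 bp in BxPC3 P1-a2, and 424 and 407 bp against 458 and 430 bp in ASPC1 sgNC with the pan antibody. Distal medians were lower in 17 of 18 lists, the exception being ASPC1 sgNC with the P1 antibody, replicate 2 (287 against 276 bp). Over the 9 groups the mean difference was −21.8 bp (exact sign-flip permutation p = 0.00781, adjusted p = 0.0117 over 6 such results). The 9 groups share 3 lines, so their means are not independent. The sign-flip p-values here and below do not measure the spread between lines. Comparing peaks within the same decile of fold enrichment gave −22.2 bp (exact permutation p = 0.00391, adjusted p = 0.00781), with all 9 group means below 0. In BxPC3 P2-a8 the unmatched difference was −1 bp (342 against 343 bp) and −14 bp (359 against 373 bp), and in ASPC1 sgNC with the P1 antibody −3 and 11 bp.

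They were also found less often in the other replicate of their group. A distal peak overlapped a peak of the other replicate 4.63 percentage points less often than an other peak, averaged over 9 groups (exact sign-flip permutation p = 0.00391, adjusted p = 0.00781). The 9 group means were all below 0, but 5 of 18 single lists were above. The largest gap was in ASPC1 sgNC with the P1 antibody, replicate 2, where 53.2% of distal and 82.5% of other peaks were shared. In ASPC1 sgNC with the pan antibody, replicate 2, the shares were 90.3% and 92.5%. At matched fold enrichment the difference was −4.02 points (exact permutation p = 0.00391). Without the P1-antibody groups it was −2.13 points before matching and −2.52 points after (exact permutation p = 0.0156 for both, the smallest that 7 groups allow). It was no longer past the threshold among peaks with a −log10 q of at least 20, at −1.26 points (exact permutation p = 0.289, adjusted p = 0.347), with a reciprocal overlap of 50%, at −3.25 points (exact permutation p = 0.117, adjusted p = 0.141), or with summits within 100 bp, at −3.51 points (exact permutation p = 0.0859, adjusted p = 0.103).

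Distal peaks had fewer close neighbours with the pan antibody. The measure was not adjusted for peak density, which was lower in distal sequence. The distal share of peaks was only 0.299 to 0.611 times the distal share of sequence. Whether distal peaks cluster less than that density gives was not tested. In Panc10.05, 21.8% to 31.9% of distal peaks had another peak of the list within 10 kb, against 36.5% to 49.7% of other peaks. In BxPC3 the shares were 21.6% to 36.5% against 26.6% to 49.0%, and in ASPC1 20.6% to 34.2% against 33.1% to 48.8%. The distal share was the lower one in 14 of 14 pan-antibody lists. With the P1 antibody it was the higher one in 3 of 4 lists, at 13.95% against 7.38% and 23.4% against 1.89% with sgNC, and 22.03% against 21.3% and 15.97% against 17.6% with sgP2. Over all 9 groups the difference was −8.05 points (exact sign-flip permutation p = 0.0508, adjusted p = 0.0609), and it was −12.3 points without the P1-antibody groups (exact permutation p = 0.0156) and −9.38 points without long gaps (exact permutation p = 0.00391).

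**Figure D3:**
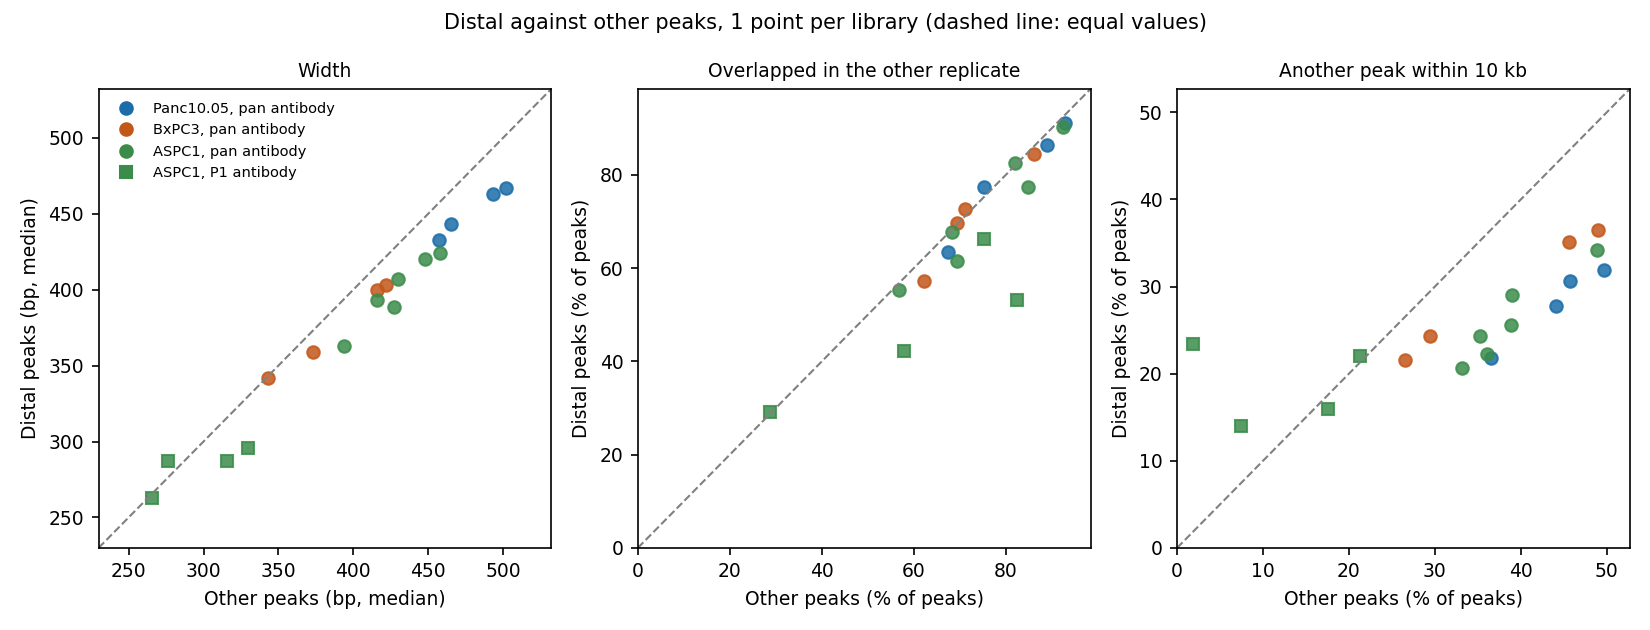
Median width in bp, percentage of peaks overlapped in the other replicate, and percentage of peaks with another peak within 10 kb, for distal peaks (vertical axis) against other peaks (horizontal axis), 1 point per library, with a dashed line of equal values; circles are pan-antibody and squares P1-antibody libraries. Points lie below the line in 17 of 18 libraries for width, 13 of 18 for replicate overlap and 15 of 18 for neighbours.

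Distal regions were found in all 3 lines less often than other regions. Merging the 14 pan-antibody lists gave 78044 regions, of which 11121 were distal. Of the distal regions 9.496% were found in all 3 lines, against 15.1% of other regions, and 62.9% in 1 line only, against 54.8%. ASPC1 held 25.8% of distal regions against 37.2% of other regions, and BxPC3 held 65.7% against 59.0%. BxPC3 alone accounted for 31.1% of distal and 20.3% of other regions, whereas Panc10.05 alone had 21.1% and 21.9%. The pair of Panc10.05 and BxPC3 without ASPC1 went the other way, with 22.05% of distal and 20.5% of other regions. When each list was held to a −log10 q of 20 or more, 6.01% of distal and 10.4% of other regions were in all 3 lines. These are counts of regions without a test, since regions of one library are not replicates.

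List by list, distal peaks were the less shared class in every pairing of ASPC1 with Panc10.05. Of the distal peaks in the 4 Panc10.05 lists 22.6% to 34.2% overlapped an ASPC1 peak, against 35.1% to 49.0% of other peaks. For the 4 BxPC3 lists the shares in ASPC1 were 20.6% to 37.1% and 32.5% to 52.1%. The 6 ASPC1 lists had 51.6% to 60.1% of their distal peaks in Panc10.05, against 61.7% to 73.8% of other peaks. Looked up in BxPC3, the distal peaks of ASPC1 were shared at 53.6% to 65.0% and other peaks at 51.2% to 66.7%, and the distal share was the lower one in 4 of 6 lists. Between the induced lines, BxPC3 lists had 50.7% to 65.5% of distal and 62.9% to 78.2% of other peaks in Panc10.05, lower for distal peaks in 4 of 4. Panc10.05 lists had 61.3% to 71.8% and 57.7% to 74.4% in BxPC3, lower for distal peaks in both P1-a2 lists and higher in both P2-a8 lists.

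**Figure D4:**
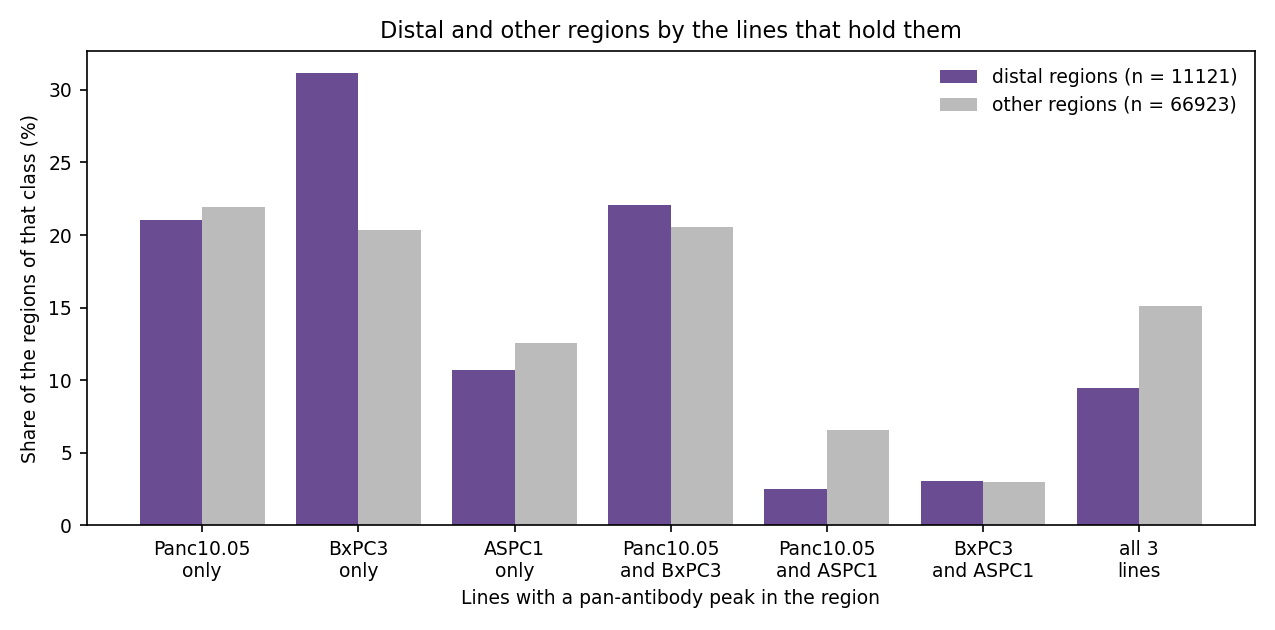
Share of distal regions (n = 11121) and of other regions (n = 66923) by the lines in which a pan-antibody peak was found; bars start at 0 and give percent of the regions of the class. BxPC3 alone holds 31.1% of distal and 20.3% of other regions, and all 3 lines hold 9.496% and 15.1%.

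A small set of distal regions was bound everywhere and strongly. There were 205 distal regions in all 14 pan-antibody lists, 1.84% of distal regions against 3.17% of other regions, and their median of mean percentiles was 79.3 (78.5 for other regions). The strongest lay at chr1:59027619-59028785 within the lncRNA gene LINC01358, 244 kb from JUN, which encodes a subunit of the AP-1 factor. Its fold enrichment was 36.8 at the lowest (BxPC3 P2-a8 replicate 1), 63.7 at the median and 119 at the highest (ASPC1 sgNC replicate 1), and its percentile was at least 98.5 in every list. Of the 163 regions found in all 18 lists, P1 antibody included, 8 (4.91%) were distal. In the union of the pan-antibody lists 11121 of 78044 regions were. The LINC01358 region was the strongest also among those 8, where its lowest percentile was 97.5.

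The next regions by rank lay near genes of diverse roles. The region 114 kb from REEP3, which shapes the endoplasmic reticulum, had 17.7-fold enrichment at the lowest, 45.5 at the median and 134 at the highest. The region 209 kb from SEMA3A, a guidance factor for axons and vessels, had 13.6, 51.6 and 148. Both held their lowest value in BxPC3 P2-a8 replicate 2 and were found in all 18 lists. The region 175 kb from MAP1B, a microtubule-binding protein, had 19.6, 29.1 and 77.6 and was in all 18 lists too. The fifth of the regions in all 18 lists, 130 kb from the mitochondrial import receptor gene TOMM20, lay within LINC03108 and had a mean percentile of 90.7.

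The other regions among the 10 strongest in the pan-antibody lists had mean percentiles of 95.3 to 98.5. They lay 604 and 677 kb from KLF4, 106 kb from TRPS1, 216 kb from HNRNPA3, 508 kb from PKN2 and 227 kb from COL12A1. KLF4 is a zinc finger factor of epithelial differentiation, TRPS1 a GATA-type repressor and COL12A1 a fibril-associated collagen. Their lowest percentiles were 71.7 to 93.5. At the LINC01358 region the ASPC1 lists gave 64.3- and 57.3-fold enrichment with sgP1, 38.2 and 41.7 with sgP2, and 119 and 63.9 with sgNC, so that both sgP2 values were below the others. Near TRPS1 both sgP2 values (50.2 and 50.6) were above those of sgP1 (31.3 and 23.9) and sgNC (36.2 and 34.1), and at the remaining 8 of the 10 regions sgP2 overlapped the other guides. The authors' fold values were not compared between lists by a test, since they were not scaled across lists.

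Distal regions were also counted by the stretch between neighbouring protein-coding genes that held them. Of 1639 stretches longer than 200 kb, 1185 held at least 1 of the 7773 distal regions found in 2 or more pan-antibody lists. The 8 fullest held 371 of them (4.77%), at 16.3 to 76.1 regions per Mb of distal sequence, while the median stretch with any had 12.3. These 8 were picked by their count, which favours long stretches, so high counts follow from the choice. Whether distal regions crowd in some stretches more than an even spread gives was not tested. The stretch from MYC, the growth-promoting factor, to GSDMC held 64 regions, all of them found in Panc10.05, 39 in BxPC3 and 14 in ASPC1. The stretch from ZEB2, a repressor of epithelial genes, to ACVR2A held 51, and the stretch from IGFBP3 to TNS3 held 46. The others were CITED2 to LOC124901415 with 41, TRIB1 to LRATD2 with 40, VRK1 to BCL11B with 40 and DUSP4 to SARAF with 39.

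The stretch between KLF4 and ACTL7B, 1365 kb long, had the most regions in all 14 pan-antibody lists among the fullest stretches. The stretch from IGFBP3 to TNS3 came next, with 4 of its 46 regions in all 14. Over all 7773 distal regions in 2 or more lists, 205 were in all 14. These counts were not tested. The KLF4 stretch held 50 regions, and 6 of them were in all 14 lists. Those 6 lay 262, 604, 677, 978, 980 and 1054 kb from KLF4, the regions at 262, 604 and 677 kb within lncRNA genes. Their mean percentiles were 88.7, 98.5, 95.7, 83.9, 82.4 and 40.8. By line, 38 of the 50 were in Panc10.05, 45 in BxPC3 and 14 in ASPC1. Against this, the VRK1 to BCL11B stretch belonged to BxPC3: 40 of 40 regions were found there, 7 in Panc10.05 and 4 in ASPC1, and none in all 14 lists. Over all distal regions in 2 or more lists, 72.1% were in BxPC3, 65.9% in Panc10.05 and 28.7% in ASPC1. The ASPC1 share in the KLF4 stretch, 28%, was close to that value. Among the fullest stretches the ASPC1 share ran from 10% (VRK1 to BCL11B) to 52.2% (IGFBP3 to TNS3).

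**Figure D5:**
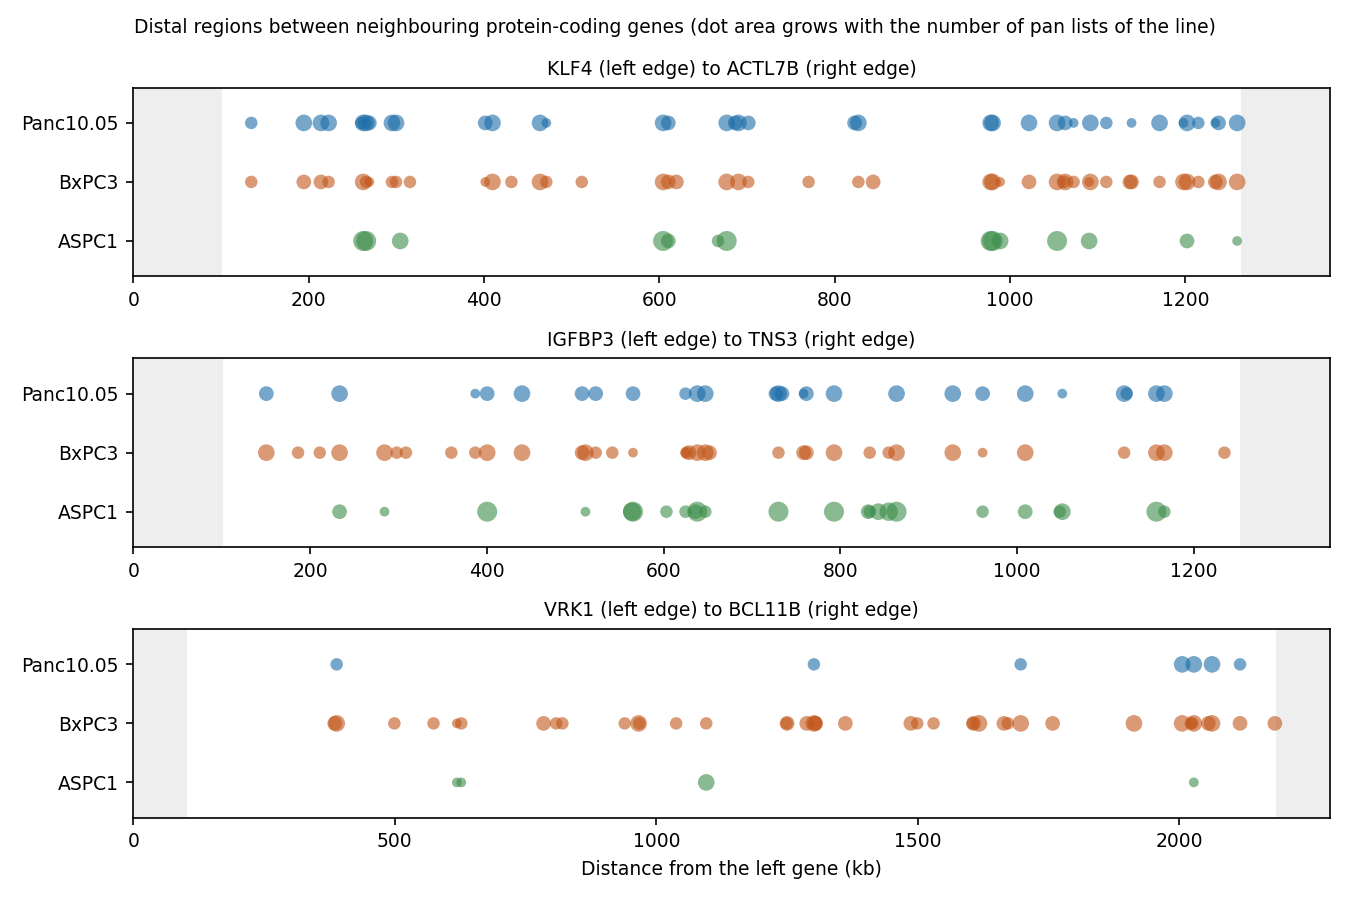
Distal regions in 3 stretches, at their distance in kb from the gene on the left, by line; dot area grows with the number of pan-antibody lists of the line that hold the region (up to 4 in Panc10.05 and BxPC3, 6 in ASPC1), and grey marks sequence within 100 kb of either gene. Of the ASPC1 regions, 12 of 14 in the KLF4 stretch, 4 of 4 in VRK1 and 18 of 24 in IGFBP3 were also in another line. The VRK1 stretch has 40 regions in BxPC3, 7 in Panc10.05 and 4 in ASPC1.

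Neighbouring regions formed clusters when chained at 10 kb. Of the 7773 regions 61.3% stood alone, and the others formed 1206 clusters, 52 of them with 5 or more regions. The largest, at chr7:130887224-130923206 between KLF14 and MKLN1, held 11 regions in 35.98 kb and included the starts of the lncRNA genes LINC-PINT and LINC00513. All 11 were found in ASPC1, 8 in Panc10.05 and 6 in BxPC3, which is the reverse of the order over all regions. A cluster of 9 regions in 29.3 kb lay 230 kb from ATP2B1, which encodes a calcium pump, and a cluster of 8 in 20.1 kb lay between LRATD2 and POU5F1B, 3 of its regions in all 14 lists.

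A fixed list of 25 genes, among them regulators of epithelial and foregut identity, was looked up as nearest gene. Of these, 17 had at least 1 distal region and together they had 217 found in 2 or more pan-antibody lists. Of all 19821 protein-coding genes on chromosomes 1 to 22 and X, 1766 (8.91%) were nearest to such a region, but the list was chosen with earlier results of these data known, so nothing is read from its share. By line, 143 of the 217 (65.9%) were in Panc10.05, 162 (74.7%) in BxPC3 and 58 (26.7%) in ASPC1, close to the split of all distal regions in 2 or more lists given above. Genes of the list without one included GATA4, GATA6, FOXA1, PDX1, CDX2, HHEX and PROX1, whose surroundings within 100 kb were not counted. SOX9, a factor of pancreatic ducts and progenitors, had 21 regions, 18 in Panc10.05, 6 in BxPC3 and 2 in ASPC1. BMP2, a secreted ligand, had 20, all in BxPC3, with 3 in Panc10.05 and 1 in ASPC1. NR2F2, a nuclear receptor, had 17, all in BxPC3, with 10 in Panc10.05 and 2 in ASPC1.

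Other members of that list differed in their split by line. PTGER4, a prostaglandin receptor, had 22 regions, all in BxPC3, 11 in Panc10.05 and 7 in ASPC1. SHH had 11, of which 9, 7 and 5 were in Panc10.05, BxPC3 and ASPC1, with a highest mean percentile of 94.4 and 2 regions in all 14 lists. KLF5, a factor of proliferating epithelium, had 10, with 2, 9 and 5. NR2F1 had 11, with 8, 7 and 7. HNF4G, the paralog of HNF4A, had 5, with 2, 4 and 2, and 1 region in all 14 lists. FOXA2, SOX2 and IRX3 had 6, 6 and 2 regions and none in ASPC1.

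A region is called specific to a group when both lists of the group hold it and neither list of the other group does. In Panc10.05, 340 distal regions were specific to P1-a2 (5.54% of distal regions, where 3.63% of all regions were) and 561 to P2-a8 (9.14%, where 10.9% were). Distal regions were thus 19.0% of the regions specific to P1-a2 and 10.4% of those specific to P2-a8, around 12.5% in the union of the 4 lists. In BxPC3, 2122 distal regions were specific to P1-a2 (28.9% of distal, 28.2% of all regions) and 11 to P2-a8 (0.150% of distal, 0.129% of all). The distal share there stayed near the background, and P2-a8 lists were less long than P1-a2 lists.

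In ASPC1 with the pan antibody, sgNC had 250 specific distal regions against sgP1 (9.31%, all regions 8.98%) and sgP1 had 18 (0.671%, all 0.41%). Against sgP2, sgNC had 223 (8.30%, all 7.2%) and sgP2 had 19 (0.707%, all 0.403%). Between the targeted guides, 75 distal regions were specific to sgP1 (3.59%, all 2.74%) and 94 to sgP2 (4.49%, all 4.32%). The share of distal regions was 1.04 to 1.75 times that of all regions in these 6 counts, the largest ratios resting on 18 and 19 regions. The sgNC lists, which serve in both comparisons, were the longer ones, with 24287 and 15114 peaks.

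With the P1 antibody, 208 distal regions were specific to sgP2 (25.7%, where 36% of all regions were). The strongest of them lay 534 kb from JAG1, a Notch ligand, at percentiles 94.2 and 94.8. For sgNC 4 regions were specific out of the whole union (0.0638%), and all 4 were distal, or 0.495% of distal regions. The strongest pair, 752 kb from EMB and 413 kb from WSB1, stood at percentiles 1.87 and 7.34, and 1.15 and 6.95.

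The strongest specific distal regions differed in rank between comparisons. For P2-a8 in Panc10.05 they lay 155 kb from PDCD2 (percentiles 98.2 and 92.0) and 485 kb from ZMIZ1 (97.7 and 89.1). For P1-a2 they lay 227 kb from CTNNA3, within LINC01515 (76.5 and 92.4), and 964 kb from SUCLG1 (86.1 and 76.6). BxPC3 P1-a2 had regions 191 kb from TLE4, a co-repressor of Wnt targets (96.1 and 90.9), and 159 kb from SLCO3A1, an organic anion carrier (93.2 and 93.3). Among ASPC1 lists the region 487 kb from CNTN3 was in both sgNC lists (93.4 and 89.99) and in neither sgP1 list, and the region 200 kb from SPRY1, an inhibitor of receptor tyrosine kinase signalling, was in both sgNC lists (84.4 and 79.6) and in neither sgP2 list. The 4 strongest regions specific to sgP1 or sgP2 against sgNC ranked lower, at 28.3 to 78.4, nearest to CCDC85A, CHSY3, PMEPA1 and DPPA4. Those of BxPC3 P2-a8, 411 kb from ZHX2 and 403 kb from UBE2E3, stood at 40.9 and 78.8, and 35.4 and 73.8. Between sgP1 and sgP2 the strongest lay 665 kb from CA10 for sgP1 (67.9 and 69.8) and 168 kb from MSRB3, within MSRB3-AS1, for sgP2 (82.8 and 73.3).

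One distal region covered a miRNA gene by its RefSeq position. MIR4437 lies at chr2:181305593-181305652 on the minus strand, 152 kb from the integrin gene ITGA4, under a region with a peak in 9 pan-antibody lists of all 3 lines and a mean percentile of 87.2. Its mature sequence, shown because it identifies the only miRNA among the distal regions, has bases 2 to 8 (the seed) in capitals.
hsa-miR-4437: uGGGCUCAggguacaaagguu

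The farthest distal region found in at least 2 pan-antibody lists lay 4895 kb from OR11H1 on chromosome 22, with a mean percentile of 13.8. Outside gaps over 3 Mb the farthest was 1451 kb from GOT2 at chr16:60185458-60185942, with a mean percentile of 48.0 in its 2 lists.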

How the data were processed

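The 18 immunoprecipitated libraries each have 1 peak list, so the authors called peaks library by library; the 14 input libraries were not used. The labels' protocols give a double crosslink, disuccinimidyl glutarate and then formaldehyde. The submitters' processing notes name Bowtie2 2.2.9, MACS2 2.2.7, hg38 and mm10 without saying how each was used; the peaks, from human lines, were read as hg38 (GRCh38), and the control and the depth behind the lists are not given in the sources used here. In the deposited lists the fold enrichment is the authors' linear ratio, and p- and q-values are the authors' −log10 values. They served only to rank and filter peaks within a list.

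Summits were compared with the spans of 19866 protein-coding genes of GRCh38.p14; 171 rows with scaffold coordinates were left out, as was chromosome Y, because genes shared with X are listed on X alone. The gene table gives no strand, and distances run to the nearest end of a span. Regions merge overlapping peaks (at least 1 bp) of several lists and take the distance at the summit of their strongest peak. Shares have exact (Clopper-Pearson) 95% intervals, which cover counting error only. Lists were compared by two-sided exact permutation tests, and distal with other peaks by exact sign-flip tests over 9 group means, with Benjamini-Hochberg adjustment (threshold 0.05) over 11 and 6 results. The sign-flip tests treat the 9 groups as independent although they share 3 lines. Matched differences are means over 10 deciles of fold enrichment. Same-numbered replicates deviated together by a correlation of −0.0488 to 0.0683 over distal regions and were not treated as pairs. Named regions are the 10 strongest in all 14 pan-antibody lists, the 5 strongest in all 18, the 2 strongest specific regions per group and comparison, the 8 fullest stretches, the 3 largest clusters, the farthest regions and 25 fixed genes, 1 of which is not reported here by name. The distal peaks, these lists and the tests were chosen with earlier results of these data known. Distances were checked by brute force on the gene table, and overlaps against a separate program on a pair of the lists. Tests and matched differences were checked on simulated data (Python 3.11.15, numpy 2.4.6, pandas 2.3.3, scipy 1.17.1, statsmodels 0.14.6).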

Additional observations from a re-analysis of the deposited data

Results flagged for a closer look

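The 18 lists together held 107 peaks on chromosome Y (0 to 12 per list), which no comparison uses because the gene table does not place the genes shared by X and Y on both. They were noted because they lie outside the main measurement. No distance was given for them.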

How the results depend on the processing

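Of 384 values of tested results under alternatives, 361 kept their direction and their side of the threshold, 10 reversed, 8 newly passed it and 5 no longer passed it. Differences in width, at −47.2 to −18.2 bp, and the ASPC1 difference at a common floor, at −5.60 to −0.672 points, passed under every alternative run. Clustering newly passed the threshold with a limit of 50 kb (−6.44 points), 200 kb (−10.8) or every annotated gene (−15.9), without gaps over 3 Mb (−9.38), with equal list lengths (−7.03), with neighbours within 50 kb (−13.2) and without the P1-antibody groups (−12.3). Replicate sharing no longer passed at a −log10 q of at least 20 (−1.26, matched −1.03), with reciprocal overlap of 50% (−3.25, matched −2.66) and, before matching, with summits within 100 bp (−3.51). The reversed values were sgP1 minus sgNC at a −log10 q of at least 8 (−0.225) and 20 (−0.444) and at equal length (−0.103), P1 minus pan antibody in sgP2 at 20 (−0.249), sgP2 minus sgNC with the P1 antibody without long gaps (0.358), and the rank difference without the P1-antibody groups (1.24). Leaving out 1 replicate at a time gave −0.294 to 1.05 points for the BxPC3 isoforms, −0.384 to 0.674 for sgP1 minus sgNC, −0.0954 to 0.963 for sgP1 minus sgP2, −0.621 to 0.0439 for sgP2 minus sgNC and −8.88 to −7.22 for clustering, which passed the threshold without ASPC1 sgNC P1-antibody replicate 2 (−8.88). The cause of these changes was not tested. A replicate block left the differences as they were, since pairs average to the same value (Panc10.05 isoforms 1.49, exact permutation p = 0.50), and changed no call, although the labels' numbers were not taken as pairs.

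Group-specific shares depend on how many lists must agree, so leaving out 1 list loosens the definition. The share over all regions was not computed under these alternatives. The values below therefore do not show whether a distal share stays above or below its background. In percent of distal regions they then ran from 8.21 to 18.5 for Panc10.05 P1-a2 and 10.5 to 20.8 for P2-a8, from 33.6 to 58.1 for BxPC3 P1-a2 and 0.241 to 1.85 for P2-a8, from 0.854 to 7.09 for sgP1 and 11.9 to 38.0 for sgNC, from 1.05 to 5.44 for sgP2 and 12.2 to 38.2 for sgNC, from 6.13 to 19.5 for sgP1 and 6.62 to 17.0 for sgP2, and, with the P1 antibody, from 27.2 to 84.0 for sgP2 and 0.741 to 2.51 for sgNC. With reciprocal overlap of 50% they were 6.20 for Panc10.05 P1-a2, 10.2 for P2-a8, 30.2 for BxPC3 P1-a2, 1.43 for P2-a8, 1.79 for sgP1 and 1.82 for sgP2. The share of distal regions in 3 lines was 8.14% and 6.01% at a −log10 q of at least 8 and 20, and 8.53% to 9.57% without single lists. Alternatives chosen after seeing the data were all rows of the gene table, chromosome Y kept, the P1-antibody groups left out, full lists for the ASPC1 difference, regions in 3 lines at other floors and these regions and specific regions without single lists. The HNF4 motif share at summits, planned for a genome sequence, was not run. Read depth is unknown, so its part in list length was not tested.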
